A study of Homo sapiens with 15 samples.

Results

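The IL6 family genes followed here were 4 ligands (IL6, LIF, IL11 and CLCF1), 4 receptor chains (IL6R, IL6ST, LIFR and OSMR) and 2 genes of the signal inside the cell (STAT3 and SOCS3). They were picked by gene symbol, and all 10 were listed among 16382 genes for the MRC5 fibroblasts and among 16076 genes for the H196 tumor cells. MRC5 is a human lung fibroblast line, H196 a non-neuroendocrine (non-NE) small cell lung cancer (SCLC) line and H69 a neuroendocrine (NE) SCLC line. The fibroblasts were cultured by themselves (MRC5_Mo), opposite H69 (MRC5_coH69) or opposite H196 (MRC5_coH196), the tumor cells by themselves (H196_Mo) or opposite MRC5 (H196_Co), and mRNA of each of these 5 groups was sequenced in 3 libraries, 15 in all. No drug or edited gene is named for any group, the partner sat on a transwell insert above the cells that were harvested after about a week, and H69 cells themselves were not sequenced. The study used these cultures to ask how fibroblasts and SCLC cells of either type change each other, so each partner is represented by a single line and the fibroblasts by a commercial line rather than by tumor-derived CAFs.

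Cytokines of the IL6 family share the receptor chain IL6ST (gp130). A ligand first meets its own partner chain, such as IL6R for IL6, IL11RA for IL11, LIFR for LIF, OSMR or LIFR for oncostatin M (OSM), and CNTFR with LIFR for CLCF1, and the complex then activates JAK kinases and the transcription factor STAT3. SOCS3 is a STAT3 target that binds gp130 and shuts the signal off again, so that its transcript is widely read as a record of recent signaling. In fibroblasts of tumors, IL6, LIF and IL11 are known as marks of an inflammatory state, and LIF and IL11 are also produced in answer to TGF-β.

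The sites found at the starts of these genes are shown first, because they are the sequence context of the transcripts measured below. RefSeq start windows on GRCh38.p14, from 250 bases before a start to 50 after it, were matched for 8 of the 10 genes (11 windows, since LIFR and SOCS3 have several starts); there was no entry for LIF and CLCF1. Both strands were searched for the STAT site TTCNNNGAA, the AP-1 site TGANTCA and the hypoxia response core ACGTG, which are held by 7.66%, 7.71% and 21.4% of all 35116 windows. No listed match overlapped another. The label AP-1 below marks only a match to TGANTCA, in which the middle base was free. That base was G in IL11 and IL6R and T in OSMR. Each line below gives 30 bases in the direction of the gene, with the match in capitals.
IL11, AP-1, chr19:55370541-55370570, minus strand, first base at position -96: ggcagggagggTGAGTCAggatgtgtcagg
IL6R, AP-1, chr1:154405363-154405392, plus strand, first base at position 38: aggaccgtccgccgctcTGAGTCAtgtgcg
OSMR, AP-1, chr5:38846004-38846033, plus strand, first base at position 4: tgccccgcagcTGATTCAtagccccggccc
OSMR, hypoxia core on the other strand, chr5:38846032-38846061, plus strand, first base at position 35: ccgggccgcctctgCACGTccgccccggag
LIFR, STAT, chr5:38595551-38595580, minus strand, first base at position -165: ccattactagTTCCTTGAAccacaatccaa
LIFR, STAT, chr5:38557630-38557659, minus strand, first base at position -182: gctttggagtTTCATCGAAaggtctttaaa
The hypoxia core also lay at positions 24 and -159 of these LIFR windows. The windows of IL6, IL6ST, STAT3 and SOCS3 held none of these letters, which says nothing about the factors themselves.

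The 250 bases before the starts of OSMR and IL6 are given whole, because these were the members that rose most in MRC5_coH196 cells and their start regions differ in kind. CG pairs are in capitals.
OSMR, chr5:38845762-38846011, plus strand: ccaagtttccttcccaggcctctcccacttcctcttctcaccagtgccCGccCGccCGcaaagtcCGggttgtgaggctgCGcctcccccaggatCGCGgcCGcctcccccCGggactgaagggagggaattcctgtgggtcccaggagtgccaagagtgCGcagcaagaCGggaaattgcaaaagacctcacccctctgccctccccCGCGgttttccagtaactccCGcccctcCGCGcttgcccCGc
IL6, chr7:22726950-22727199, plus strand: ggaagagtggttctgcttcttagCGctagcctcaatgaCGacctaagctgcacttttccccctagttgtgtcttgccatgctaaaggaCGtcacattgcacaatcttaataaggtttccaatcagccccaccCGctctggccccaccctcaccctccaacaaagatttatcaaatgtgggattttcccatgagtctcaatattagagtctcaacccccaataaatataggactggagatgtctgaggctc
OSMR had 17 CG pairs in this stretch and IL6 had 4, beside a median of 11 over all windows.

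Library totals ran from 18476890 to 19170560 counts for MRC5 and from 16073597 to 17358349 for H196. A floor was set at 3 counts, about the one-sided 95% upper limit for an observed count of 0. It corresponded to 0.156 to 0.162 CPM (counts scaled to a common library size) in MRC5 and 0.173 to 0.187 CPM in H196. Levels are given as FPKM, fragments scaled for gene length and library size, and differences as log2 fold changes from a fit to the counts. Genes were called DEGs where the adjusted p was under 0.05 and the log2 fold change lay beyond 0.58 in either direction. The labelled cell types were checked against their markers: 10 of 10 fibroblast markers exceeded 1 FPKM in every MRC5 group but 1 of 10 (FN1) in H196, 6 of 6 markers of non-NE SCLC exceeded it in H196 (and in MRC5), and of 8 markers of NE cells, 6 were listed in H196, where SYP (7.61 to 8.96 FPKM) and DLL3 (3.58 to 5.05) exceeded it and NEUROD1 and CHGA did not. The collagen genes COL1A1 and COL3A1 fell in MRC5_coH196, and the summed FPKM of the fibroblast markers was 6784 to 7479 in MRC5_Mo, 7598 to 7921 in MRC5_coH69 and 4523 to 4616 in MRC5_coH196. Most markers did not share this fall of the sum. Against MRC5_Mo, 6 of the 10 had an adjusted p under 0.05 (edgeR) with a rise, beside 37.2% of all genes. Another 3 passed with a fall, beside 37.1%, and the median log2 fold change of the 10 was 0.15. RNA of the partner was followed with genes seen in the other line alone: 99 markers of H196 summed to 9.49 to 10.4 CPM in MRC5_Mo, 8.68 to 10.8 CPM in MRC5_coH69 and 23.9 to 62.4 CPM in MRC5_coH196, at most 0.777% of their level in H196_Mo cells, and 160 markers of MRC5 to 15.6 to 16.1 CPM in H196_Mo and 19.01 to 21.14 CPM in H196_Co.

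The levels in mono-culture set the starting point. In MRC5_Mo cells the order by mean FPKM was IL6ST (60.5 ± 3.70, SD, n = 3), OSMR (33.9 ± 2.05), STAT3 (33.9 ± 1.77), SOCS3 (20.9 ± 1.37), LIF (19.7 ± 1.31), IL11 (11.9 ± 1.21), CLCF1 (9.93 ± 0.61), IL6 (4.56 ± 0.14), LIFR (3.19 ± 0.25) and IL6R (1.57 ± 0.19). OSMR and STAT3, and SOCS3 and LIF, had ranges that overlapped, and the other neighbours did not. H196_Mo cells carried OSMR (30.5 ± 1.04 FPKM), IL6ST (24.4 ± 2.52), STAT3 (19.03 ± 0.84), SOCS3 (13.1 ± 1.07), LIF (6.60 ± 0.97), CLCF1 (4.71 ± 0.14), LIFR (1.48 ± 0.21) and IL6R (0.50 ± 0.12). In H196, IL11 stood at 0.15 ± 0.05 FPKM and IL6 was not detected, and no neighbouring ranges overlapped in H196_Mo. Both lines thus held the common chain, OSMR and STAT3 far above IL6R and LIFR, while IL6 and IL11 transcripts were at or near 0 in the tumor cells. The tables of the lines were normalised separately, so levels set across them are a description.

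**Figure D1:**
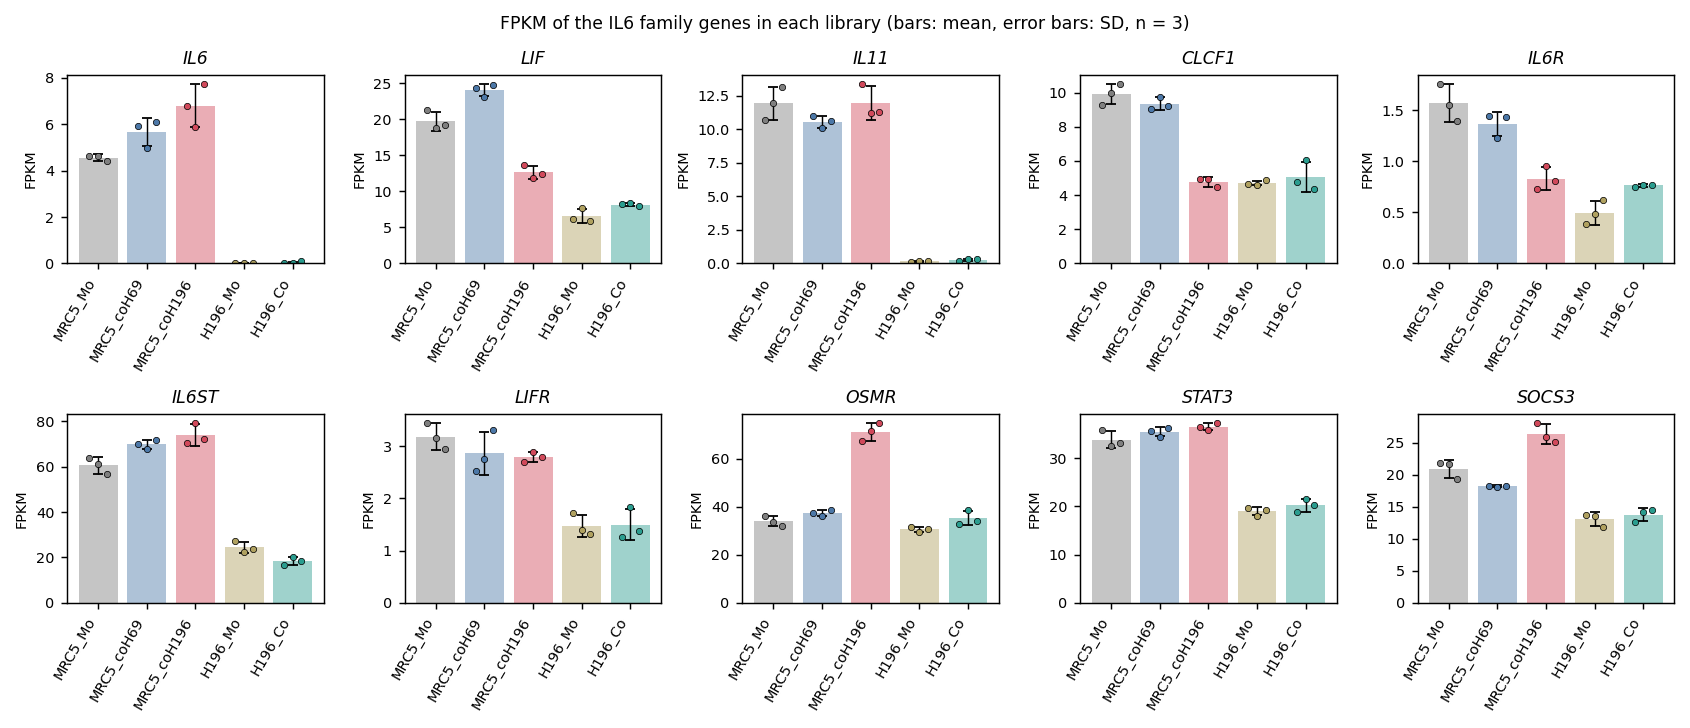
FPKM of the 10 genes (vertical axes, each starting at 0) in the 5 groups, with points for the 3 libraries, bars for the mean and error bars for the SD. OSMR stands at 67.4 to 74.8 FPKM in MRC5_coH196 and below 40 elsewhere, LIF is highest in MRC5_coH69, and IL6 is at or near 0 in both H196 groups.

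Co-culture with H196 cells changed most of the family in the fibroblasts, in both directions. OSMR and IL6 rose past the fold limit, CLCF1 and IL6R fell past it, and the common chain IL6ST, STAT3 and SOCS3 rose by smaller amounts while LIF fell. In MRC5_coH196 against MRC5_Mo, 4 of 10 members were DEGs, beside 31.9% of all 12819 genes tested, with 2 higher (background 17.2%) and 2 lower (background 14.7%). An adjusted p under 0.05 was reached by 9 of 10, beside 74.3% of all genes, and CPM values were separate between the groups for 8 of 10, beside 75.5%. These shares lie near those of all genes, so that the result concerns which members moved and which way, not how many.

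OSMR, the chain that forms the type II receptor for oncostatin M with IL6ST and pairs with IL31RA for IL31, showed the greatest change of the 10. The gene (ID 9180) lies on chromosome 5 at 38846012 to 38945596, on GRCh38.p13 as for all gene positions here, 237658 bases beyond the end of LIFR. It read 36.2, 33.5 and 32.2 FPKM in MRC5_Mo, 37.6, 36.2 and 38.8 in MRC5_coH69, and 67.4, 71.6 and 74.8 in MRC5_coH196. Every MRC5_coH196 library was above every other fibroblast library. The log2 fold change of MRC5_coH196 against MRC5_Mo was 1.22 (SE 0.05, adjusted p = 4.04e-17, edgeR), a 2.32-fold rise, and that against MRC5_coH69 was 1.05 (SE 0.05, adjusted p = 7.87e-16). OSMR reached the level of IL6ST in these cells, where the ranges of the pair overlapped (70.2 to 79.3 FPKM for IL6ST). The summed H196 markers were also higher in MRC5_coH196, as given above, and their part in this rise was not tested.

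LIFR, the chain for LIF, cardiotrophin-like cytokines and the type I oncostatin M receptor, did not follow its neighbour. This gene (ID 3977, chromosome 5, 38471675 to 38608354) read 3.45, 3.16 and 2.95 FPKM in MRC5_Mo, 2.53, 2.75 and 3.32 in MRC5_coH69, and 2.69, 2.89 and 2.80 in MRC5_coH196. On FPKM the MRC5_coH196 libraries lay just below those of MRC5_Mo, and MRC5_coH69 overlapped with both, while on CPM no pair of groups was separate. Its log2 fold change in MRC5_coH196 against MRC5_Mo was 0.01 with a 95% interval from -0.15 to 0.16 (adjusted p = 0.93), and turned to -0.14 (adjusted p = 0.10) on log2(FPKM + 1). On this scale the median gene itself moved by -0.13, and by -0.18 on log2(FPKM + 0.1), so directions as small as this one depend on the scaling. The same offset lies in every other FPKM-scale difference of MRC5_coH196 from MRC5_Mo given below. Against MRC5_coH69 the medians on these scales were -0.14 and -0.18. The ratio of OSMR to LIFR, taken as FPKM within each library, was 10.5, 10.6 and 10.9 in MRC5_Mo, 14.8, 13.2 and 11.7 in MRC5_coH69, and 25.0, 24.8 and 26.7 in MRC5_coH196. It ranged from 18.2 to 25.9 over the 6 H196 libraries, so the ratio of MRC5_coH196 came to lie near theirs. No test was made of this ratio, since an exact permutation test of 3 against 3 libraries cannot give a p below 0.1.

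IL6R, the chain that gives a cell a direct answer to IL6, went the other way. The gene (ID 3570, chromosome 1, 154405343 to 154469450) read 1.76, 1.55 and 1.39 FPKM in MRC5_Mo, 1.44, 1.23 and 1.43 in MRC5_coH69, and 0.73, 0.95 and 0.81 in MRC5_coH196. All MRC5_coH196 libraries lay below all others of the fibroblasts, at 72 to 96 counts. The log2 fold change against MRC5_Mo was -0.71 (SE 0.13, adjusted p = 3.97e-05), and against MRC5_coH69 -0.56 (SE 0.14, adjusted p = 0.00073). IL6ST (ID 3572, chromosome 5, 55935095 to 55994963) read 63.9, 61.1 and 56.6 FPKM in MRC5_Mo, 70.0, 67.9 and 71.9 in MRC5_coH69, and 70.2, 79.3 and 72.4 in MRC5_coH196. Both co-cultures were above MRC5_Mo, and on FPKM they overlapped with each other. IL6ST rose by 0.46 on the log2 scale (SE 0.05, adjusted p = 2.46e-09) with H196 and by 0.22 (SE 0.05, adjusted p = 0.0033) with H69 cells. The ratio of IL6ST to IL6R was 36.3 to 40.7 in MRC5_Mo, 48.6 to 55.2 in MRC5_coH69 and 83.5 to 96.2 in MRC5_coH196.

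**Figure D2:**
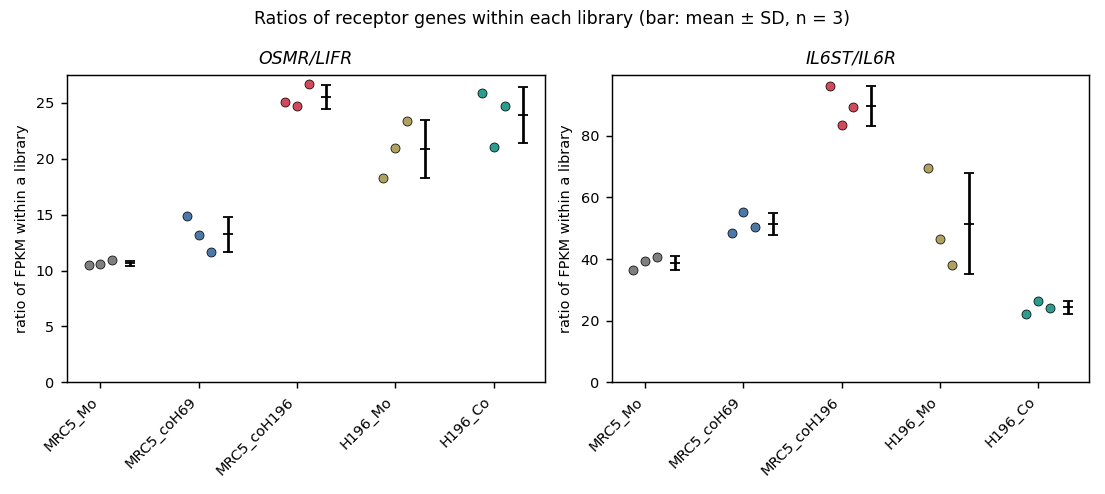
Ratio of FPKM within each library (vertical axes) for OSMR to LIFR and IL6ST to IL6R in the 5 groups, with points for libraries and mean ± SD beside them (n = 3). Both ratios are highest among the fibroblasts in MRC5_coH196, and IL6ST to IL6R is lower in H196_Co (22.3 to 26.4) than in H196_Mo (38.1 to 69.7).

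Among the ligands, IL6 was the only one of the 4 whose rise with H196 cells passed the fold limit, from a low level. The gene (ID 3569, chromosome 7, 22725889 to 22732002) gave 80, 80 and 80 counts in MRC5_Mo, 99, 83 and 105 in MRC5_coH69 and 119, 99 and 137 in MRC5_coH196. In FPKM these were 4.64, 4.65 and 4.40, then 5.91, 4.99 and 6.10, then 6.79, 5.87 and 7.75. MRC5_coH196 lay above MRC5_Mo in every library and overlapped with MRC5_coH69 on FPKM. The log2 fold change against MRC5_Mo was 0.72 (SE 0.13, adjusted p = 3.54e-05). On log2(FPKM + 1) it was 0.48 (adjusted p = 0.00048), under the fold limit, which left 1 member higher and 2 lower in this comparison, and with a pseudocount of 0.1 the split was 1 higher and 3 lower. Without any single library the log2 fold change was 0.61 to 0.83.

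LIF, which signals through LIFR, moved in opposite directions with the partners. This gene (ID 3976, chromosome 22, 30240453 to 30257487) read 21.2, 18.8 and 19.1 FPKM in MRC5_Mo, 24.3, 23.0 and 24.8 in MRC5_coH69, and 13.6, 11.8 and 12.4 in MRC5_coH196. No libraries of different fibroblast groups overlapped. LIF fell by 0.46 on the log2 scale with H196 cells (SE 0.06, adjusted p = 1.47e-07) and rose by 0.30 with H69 cells (SE 0.06, adjusted p = 0.0010). The difference between the co-cultures was -0.76 (SE 0.06, adjusted p = 1.68e-11), a DEG. The fall with H196 passed the fold limit on log2(FPKM + 1), at -0.61, a scale on which the median gene itself moved by -0.13.

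CLCF1, a cytokine that signals through CNTFR, LIFR and IL6ST, fell with H196 cells. The gene (ID 23529, chromosome 11, 67364168 to 67374701) read 9.29, 9.99 and 10.5 FPKM in MRC5_Mo, 9.04, 9.77 and 9.23 in MRC5_coH69, and 4.94, 4.96 and 4.45 in MRC5_coH196. The last group was lower in every library, with a log2 fold change of -0.88 (SE 0.09, adjusted p = 4.77e-09) against MRC5_Mo and -0.80 (SE 0.09, adjusted p = 3.34e-08) against MRC5_coH69. With H69 cells CLCF1 had a log2 fold change of -0.08 and a 95% interval from -0.25 to 0.09.

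IL11, a cytokine of fibroblasts linked to fibrosis, hardly moved. Its gene (ID 3589, chromosome 19, 55364382 to 55370463) read 10.7, 11.9 and 13.1 FPKM in MRC5_Mo, 10.96, 10.07 and 10.62 in MRC5_coH69, and 13.4, 11.2 and 11.3 in MRC5_coH196. MRC5_Mo overlapped with both co-cultures on this scale, and all MRC5_coH196 libraries lay above those of MRC5_coH69. The fit to counts gave 0.18 (SE 0.08, adjusted p = 0.042) against MRC5_Mo, but this call was lost on log2(FPKM + 1) (0.00, adjusted p = 0.97), with the DESeq2 Wald test (adjusted p = 0.075), with the 2 groups alone (adjusted p = 0.059), and without MRC5_Mo replicate 1 (0.11, adjusted p = 0.23), MRC5_Mo replicate 2 (0.18, adjusted p = 0.085) or MRC5_coH196 replicate 1 (0.08, adjusted p = 0.34). Against MRC5_coH69 it was 0.35 (SE 0.08, adjusted p = 0.00044) on counts and 0.16 (adjusted p = 0.091) on log2(FPKM + 1).

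The mix of ligand transcripts also differed between the cultures. Of the summed FPKM of the 4 ligands, LIF made up 42.8% ± 3.08 (SD, n = 3) in MRC5_Mo, 48.5% ± 0.36 in MRC5_coH69 and 34.9% ± 0.29 in MRC5_coH196. IL6 made up 9.89% ± 0.49, 11.4% ± 0.86 and 18.8% ± 2.39 in the same order. The sum itself was 46.2 ± 0.92, 49.6 ± 1.52 and 36.2 ± 2.47 FPKM, lowest with H196 cells. Of the summed FPKM of the 4 receptor chains, OSMR made up 34.2% ± 0.45, 33.6% ± 0.08 and 47.9% ± 1.69.

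Inside the fibroblasts, SOCS3 and STAT3 were both higher with H196 cells. SOCS3 (ID 9021, chromosome 17, 78356778 to 78360925) read 21.8, 21.6 and 19.4 FPKM in MRC5_Mo, 18.31, 18.03 and 18.32 in MRC5_coH69, and 28.1, 26.0 and 25.2 in MRC5_coH196, with no overlap between groups. It rose by 0.52 on the log2 scale against MRC5_Mo (SE 0.05, adjusted p = 3.81e-09), below the fold limit. The difference from MRC5_coH69 was 0.69 (SE 0.05, adjusted p = 2.60e-11), a DEG, and 0.51 on log2(FPKM + 1). With H69 cells SOCS3 had a log2 fold change of -0.18 (SE 0.06, adjusted p = 0.054), which passed without MRC5_Mo replicate 3 (-0.22, adjusted p = 0.045). STAT3 (ID 6774, chromosome 17, 42313324 to 42388502) read 35.9, 32.5 and 33.3 FPKM in MRC5_Mo, 35.7, 34.5 and 36.3 in MRC5_coH69, and 36.5, 36.0 and 37.4 in MRC5_coH196. On FPKM MRC5_coH196 lay just above MRC5_Mo and overlapped with MRC5_coH69, with a log2 fold change of 0.28 (SE 0.05, adjusted p = 6.63e-06), which on log2(FPKM + 1) was 0.11 (adjusted p = 0.063).

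H69 cells, the NE partner, moved the members by small amounts. No member was a DEG in MRC5_coH69 against MRC5_Mo by edgeR, DESeq2 or limma, beside 0.554% of all genes by edgeR (0.421% higher, 0.133% lower). CPM values were separate between the groups for 5 of 10, beside 25.7% of all genes. An unadjusted p under 0.05 was found for 5 of 10, beside 20.1% of all genes, and an adjusted p under 0.05 for 3 of 10, beside 6.70% of all genes, all 3 higher (background 3.78%) and none lower (background 2.93%). These were LIF, IL6ST and OSMR, whose log2 fold change was 0.16 (SE 0.05, adjusted p = 0.043). The call for OSMR was lost with DESeq2 size factors (adjusted p = 0.051), on log2(FPKM + 1) (adjusted p = 0.23) and without MRC5_Mo replicate 2 or 3 or any MRC5_coH69 replicate (adjusted p = 0.076 to 0.29), and that for IL6ST without MRC5_Mo replicate 3 (adjusted p = 0.054). On log2(FPKM + 1) neither LIF (adjusted p = 0.051) nor IL6ST (adjusted p = 0.11) passed. IL6 had a log2 fold change of 0.27 with a 95% interval from -0.02 to 0.55, so a rise as large as the fold limit was not within it.

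The co-cultures were also compared directly, which tests whether the partners had different effects. In MRC5_coH196 against MRC5_coH69, 4 of 10 members were DEGs, beside 28.2% of all genes, with OSMR and SOCS3 higher (background 15.2%) and CLCF1 and LIF lower (background 13.1%). An adjusted p under 0.05 was reached by 9 of 10, beside 72.3%, of which 6 were higher (background 35.7%) and 3 lower (background 36.6%), and CPM values were separate between the groups for 9 of 10, beside 73.1%. IL6 differed by 0.46 (SE 0.13, adjusted p = 0.0032), IL6ST by 0.24 (SE 0.05, adjusted p = 6.08e-05) and STAT3 by 0.19 (SE 0.05, adjusted p = 0.00049), of which IL6ST and STAT3 lost the call on log2(FPKM + 1), at 0.08 (adjusted p = 0.27) and 0.04 (adjusted p = 0.44). LIFR had 0.14 with a 95% interval from -0.02 to 0.30, and passed without MRC5_coH69 replicate 3 (0.25, adjusted p = 0.0067). The comparisons with MRC5_Mo share those 3 control libraries.

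**Figure D3:**
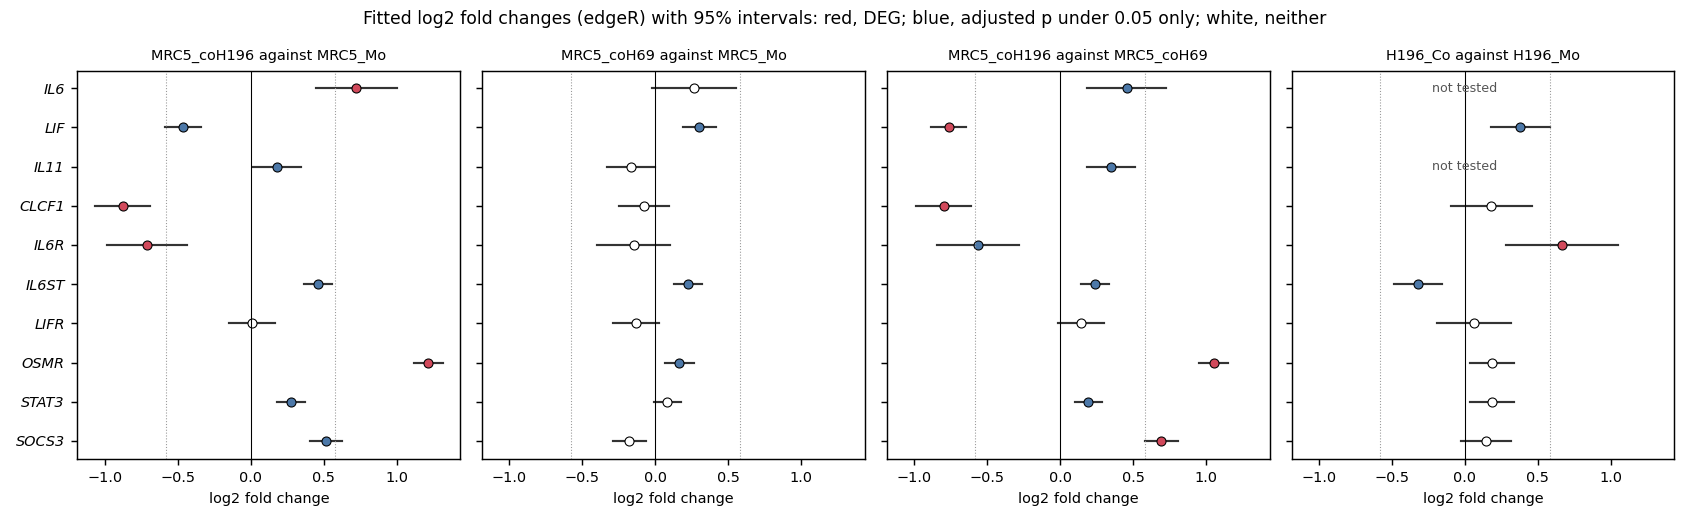
Log2 fold changes (horizontal axes) of the 10 genes in the 4 comparisons, with 95% intervals; red points are DEGs, blue points have an adjusted p under 0.05 only and white points neither, and dotted lines mark the fold limit of 0.58. OSMR, at 1.22 and 1.05, stands apart in both comparisons of MRC5_coH196, and every member of MRC5_coH69 against MRC5_Mo lies within the dotted lines.

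In the tumor cells the change with fibroblasts was small. Of the 8 members tested in H196_Co against H196_Mo, 1 was a DEG, beside 3.86% of the 12806 genes tested, and it was higher (background 3.26%), with none lower (background 0.601%). CPM values were separate between the groups for 5 of 8, beside 37.2%. An adjusted p under 0.05 was reached by 3 of 8, beside 19.8%, with IL6R and LIF higher (background 12.0%) and IL6ST lower (background 7.78%). IL6R read 0.39, 0.48 and 0.62 FPKM in H196_Mo and 0.75, 0.77 and 0.77 in H196_Co, at 33 to 51 and 56 to 64 counts. The groups did not overlap, and the log2 fold change was 0.66 (SE 0.18, adjusted p = 0.015). This call was lost with the DESeq2 Wald test (0.66, adjusted p = 0.057) and without H196_Co replicate 3 (adjusted p = 0.057), H196_Mo replicate 1 (adjusted p = 0.071) or H196_Mo replicate 2 (adjusted p = 0.060), and on log2(FPKM + 1) the difference was 0.24 (adjusted p = 0.043), so that no member was a DEG there.

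LIF rose in H196 cells as well, from 6.18, 7.70 and 5.91 to 8.27, 8.33 and 7.90 FPKM. The lowest H196_Co library lay just above the highest H196_Mo library, and the log2 fold change was 0.38 (SE 0.10, adjusted p = 0.0093). The call was lost without H196_Mo replicate 3 (0.31, adjusted p = 0.061) and on log2(FPKM + 0.1) (0.31, adjusted p = 0.084). IL6ST fell, from 27.2, 22.3 and 23.6 to 16.7, 20.4 and 18.6 FPKM, with no overlap. Its log2 fold change was -0.32 (SE 0.08, adjusted p = 0.0078) and -0.38 (adjusted p = 0.018) on log2(FPKM + 1). In the fibroblasts cultured with these cells the same transcript was higher.

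OSMR read 31.4, 29.4 and 30.9 FPKM in H196_Mo and 32.9, 38.6 and 34.1 in H196_Co. Its log2 fold change of 0.19 had a 95% interval from 0.04 to 0.34 and an adjusted p of 0.072, which became 0.037 (0.23) without H196_Co replicate 1. STAT3 read 19.7, 18.1 and 19.4 and then 18.8, 21.5 and 20.4 FPKM, with a log2 fold change of 0.19 (SE 0.07, adjusted p = 0.070). SOCS3 (11.9 to 13.8 and then 12.6 to 14.5 FPKM), CLCF1 (4.62 to 4.87 and then 4.37 to 6.07) and LIFR (1.32 to 1.72 and then 1.27 to 1.83) overlapped between the groups on FPKM, with log2 fold changes of 0.14 (adjusted p = 0.23), 0.18 (adjusted p = 0.36) and 0.06 (adjusted p = 0.75). IL6 and IL11 were too low to be tested in H196. IL6 had 0, 0 and 0 counts in H196_Mo and 0, 0 and 1 in H196_Co, and IL11 had 3, 6 and 6 and then 6, 12 and 11. The summed MRC5 markers were also a little higher in H196_Co, as given above, and their part in these IL11 counts was not tested.

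Set beside each other, the partners in co-culture held different parts of the family. On the fibroblast side, MRC5_coH196 cells carried transcripts of LIF (12.6 ± 0.92 FPKM), IL11 (11.96 ± 1.25), IL6 (6.80 ± 0.94) and CLCF1 (4.78 ± 0.29). H196_Co cells carried the matching chains IL6ST (18.6 ± 1.84 FPKM), IL11RA (11.4 to 12.4), LIFR (1.49 ± 0.30) and IL6R (0.76 ± 0.01), whereas CNTFR, the chain that binds CLCF1, had 0, 0 and 1 counts. In the other direction, H196_Co cells carried LIF (8.17 ± 0.23 FPKM) and CLCF1 (5.07 ± 0.89), with IL11 at 0.27 ± 0.09 FPKM, and MRC5_coH196 cells carried IL6ST (74.0 ± 4.75), LIFR (2.79 ± 0.10), IL11RA (10.31 to 11.04) and IL6R (0.83 ± 0.11). CNTFR was too low to be tested in the fibroblasts too, so the gap for CLCF1 was on both sides. OSMR was abundant on both sides (67.4 to 74.8 and 32.9 to 38.6 FPKM), yet its ligand OSM had at most 3 counts in any of the 15 libraries. IL31, the other ligand that uses OSMR, was not analysed here, while its partner chain IL31RA read 6.78 to 8.45 FPKM in H196_Co and 0.15 to 0.33 in MRC5_coH196. Transcript levels do not give the amount of secreted or surface protein, which was not analysed here.

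**Figure D4:**
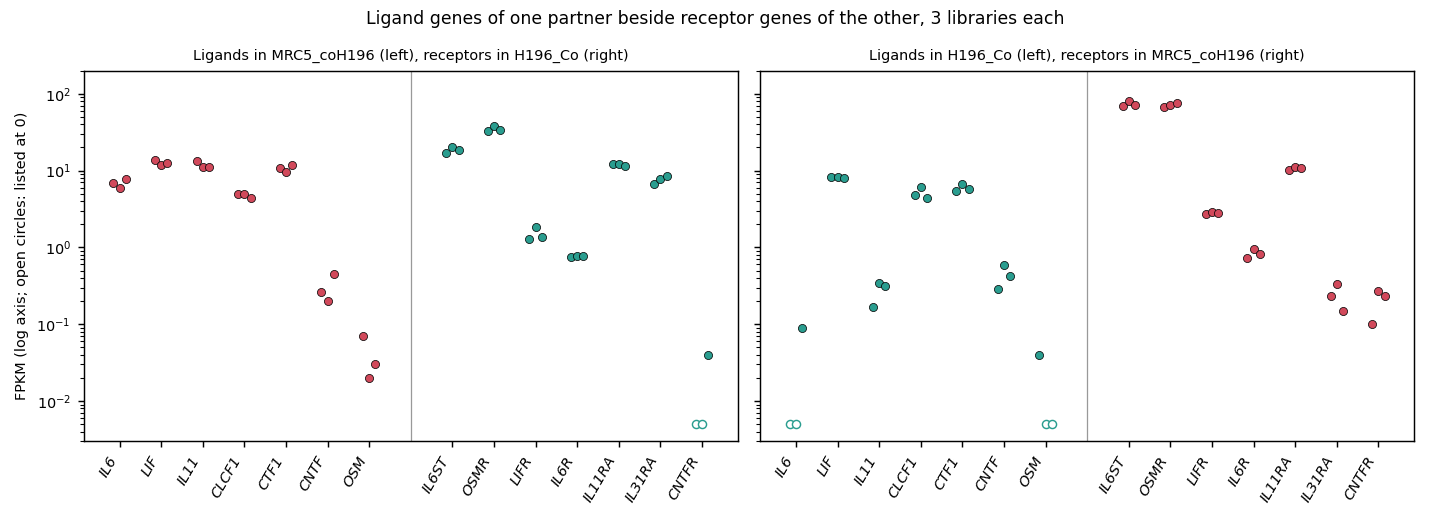
FPKM on a log axis for 7 ligand genes of one partner (left of the grey line) and 7 receptor genes of the other (right of it), with 3 points per gene for the libraries of MRC5_coH196 (red) and H196_Co (green), and open circles at the bottom for libraries listed at 0. OSM lies below 0.1 FPKM in both partners while OSMR lies above 30 in both.

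The other genes of the family were counted from a list. Of 26 further ligands, receptors and signaling genes, 24 were listed and 22 tested in MRC5, where 2 were higher and 5 lower as DEGs in MRC5_coH196 against MRC5_Mo and 15 were not DEGs. This share of DEGs (31.8%) was near that of all genes (31.9%), and their median log2 fold change was 0.07, beside 0.00 over all genes. The higher ones included GAB1, an adaptor that carries the gp130 signal to other kinases (161, 157 and 153 counts in MRC5_Mo, 293, 288 and 331 in MRC5_coH196, log2 fold change 1.11, SE 0.09). The lower ones included SOCS1, an inhibitor of JAK kinases best known from interferon signaling, which went from 14.6, 12.9 and 13.9 to 2.39, 2.44 and 2.47 FPKM. This was a log2 fold change of -2.33 (SE 0.12, adjusted p = 3.36e-15), opposite in direction to that of SOCS3, while MRC5_coH69 libraries read 11.02 to 11.28 FPKM. The other lower ones were IL27RA, the receptor chain for IL27 (-0.92, SE 0.15), PTPN2, a phosphatase that acts on JAK and STAT proteins (-0.64, SE 0.09), IL31RA (-0.59, SE 0.23) and CNTF (-0.91, SE 0.37, at 6 to 26 counts and with groups that overlapped). The falls of PTPN2, IL31RA and CNTF lay beyond the fold limit by less than their SE. JAK1, the main kinase of gp130, rose by less than the fold limit (0.45, SE 0.04). No gene of this list was a DEG in MRC5_coH69 against MRC5_Mo, beside 0.554% of all genes.

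Genes known as STAT3 targets were counted in both partners. Of 18 known targets, 16 were listed and 15 tested in MRC5, and in MRC5_coH196 against MRC5_Mo 10 had an adjusted p under 0.05 with a rise (background 37.2%) and 3 with a fall (background 37.1%), with a median log2 fold change of 0.39. DEGs were 5 of 15, near the 31.9% of all genes. CEBPB, a transcription factor of the acute phase response, rose from 39.6, 35.5 and 38.6 to 79.9, 75.8 and 83.4 FPKM (log2 fold change 1.25, SE 0.05). MYC (0.9995, SE 0.06) and the kinase PIM1 (0.81, SE 0.08) were the other DEGs that rose, and BIRC5, an inhibitor of cell death that peaks in dividing cells (-0.88, SE 0.06), and FOS (-0.65, SE 0.26, 14 to 44 counts with overlap) were those that fell. In H196_Co against H196_Mo, 5 of 14 tested targets were DEGs, beside 3.86% of all genes, all higher (background 3.26%), and 10 passed with a rise (background 12.0%) and 1 with a fall (background 7.78%). PIM1 rose from 16.1, 17.0 and 17.9 to 28.1, 26.5 and 26.0 FPKM (log2 fold change 0.73, SE 0.08), followed by MYC (0.62, SE 0.07), FOS (0.61, SE 0.10), CEBPB (0.59, SE 0.11) and CEBPD (0.58, SE 0.13). Apart from PIM1, these DEGs lay beyond the fold limit by less than their SE, so their number depends on where that limit is set. The counts by adjusted p alone do not use the limit. Counts for this list were not repeated with other tests or scales, and it was chosen with earlier results of these data known. With H69 cells 3 of 15 targets passed with a rise (background 3.78%) and 1 with a fall (background 2.93%), and none was a DEG (background 0.554%). In MRC5_coH196 against MRC5_coH69, CEBPB, MYC and PIM1 were again higher as DEGs, and BIRC5 and NNMT, a methyltransferase of nicotinamide (-0.61), lower. Many of these genes are also targets of other transcription factors, so the list does not isolate STAT3.

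**Figure D5:**
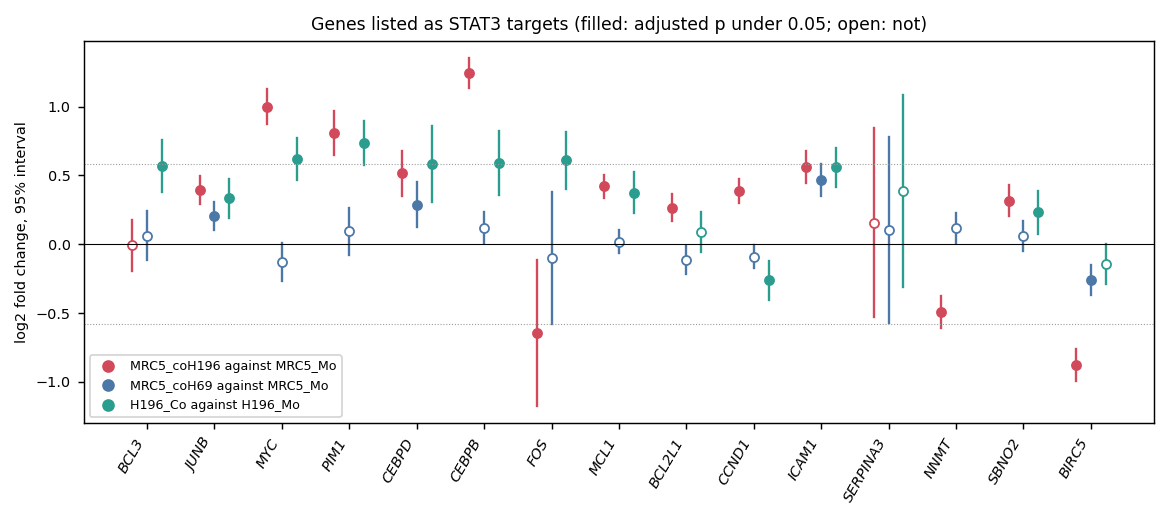
Log2 fold changes with 95% intervals (vertical axis) of genes listed as STAT3 targets in MRC5_coH196 (red) and MRC5_coH69 (blue) against MRC5_Mo and in H196_Co against H196_Mo (green), with filled points for an adjusted p under 0.05 and dotted lines at 0.58. PIM1, MYC and CEBPB lie above the upper line in red and green, while FOS lies below 0 in red and above it in green.

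The Hallmark set of IL6, JAK and STAT3 signaling, as annotated by the authors, held 78 listed MRC5 genes, of which 56 were tested, STAT3, IL6ST, OSMR, IL6 and SOCS3 among them. In MRC5_coH196 against MRC5_Mo 13 were DEGs and higher (background 17.2%) and 9 DEGs and lower (background 14.7%), together 39.3% beside 31.9% of all genes, with a median log2 fold change of 0.18, beside 0.00 for all genes. The split depended on the scale, with 7 higher and 10 lower on log2(FPKM + 1), where the median gene itself moved by -0.13. Without the 5 members, 11 were higher and 9 lower of 51 tested, with a median of 0.09. CSF2, the myeloid growth factor GM-CSF, had 1, 1 and 1 counts in MRC5_Mo, 2, 4 and 2 in MRC5_coH69 and 44, 21 and 29 in MRC5_coH196, a ratio to MRC5_Mo of 31.0 by pooled counts with a 95% counting interval from 10.3 to 153. It passed the filter on low counts only through MRC5_coH196, so its place among the tested genes depended on this rise. The leptin receptor LEPR, a relative of IL6ST (1.21, SE 0.08), the integrin chain ITGB3 (1.15, SE 0.06), JUN (1.06, SE 0.05) and TGFB1 (1.005, SE 0.05) followed. The largest falls were those of CXCL10, SOCS1, HMOX1, the heme-degrading enzyme (-1.84, SE 0.09), the adaptor MYD88 (-1.06, SE 0.06) and TNFRSF21 (-0.97, SE 0.06). CXCL10 had 6 to 11 counts in MRC5_Mo, 13 to 19 in MRC5_coH69 and 0 to 3 in MRC5_coH196. Its ratio of MRC5_coH196 to MRC5_Mo was 0.16 by pooled counts, with a 95% counting interval from 0.04 to 0.48. It passed the filter on low counts through the MRC5_coH69 libraries. Against MRC5_coH69, 12 genes of the set were higher (background 15.2%) and 11 lower (background 13.1%). On log2(FPKM + 1), where the median gene moved by -0.14, these were 7 and 12. In MRC5_coH69 against MRC5_Mo ITGB3 was the 1 DEG (0.62, SE 0.06), beside 0.554% of all genes.

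In H196 cells 72 genes of this set were listed and 53 tested, and 3 were DEGs in H196_Co against H196_Mo (5.66%, beside 3.86% of all genes), all higher, with a median of 0.05 over the set. HMOX1 rose from 22.7, 22.5 and 24.3 to 60.5, 54.4 and 58.9 FPKM (log2 fold change 1.40, SE 0.08), opposite to its fall in MRC5_coH196. JUN, part of AP-1, rose in both partners, here by 1.0004 (SE 0.07), and PIM1 was the third.

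Genes with the most similar course to a ligand over the 9 fibroblast libraries were found by the mean absolute difference of centred log2 CPM. For IL6 the 5 nearest were RSRP1 (0.07), KLC4 (0.07), HEG1 (0.07), DPP7 (0.07) and FARP1 (0.08). For LIF they were GLIPR2 (0.05), COL5A2 (0.06), NRP2 (0.06), NTN4 (0.06) and WARS1 (0.07), and COL5A2 had log2 fold changes of -0.55 with H196 and 0.23 with H69 cells. For IL11 they were FHIP1B (0.04), RUBCN (0.05), SDHA (0.05), FBL (0.05) and ARHGAP19 (0.06). None of these neighbours is another member of the family. IL6 and IL6R lay below the minimum mean CPM set for neighbours, so they could not be listed. Because only the nearest few of many genes were listed, the absence of the other members does not show that they moved apart.

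In whole cultures, fewer cells that carry a transcript and less transcript per cell cannot be told apart. Whether libraries were stranded is not given in the sources used here, so reads of antisense or overlapping genes, which RefSeq lists for IL6 (IL6-AS1), LIF (LIF-AS1 and LIF-AS2), IL6R (IL6R-AS1), LIFR (LIFR-AS1), CLCF1, SOCS3 (SOCS3-DT) and OSMR (RICTOR), cannot be separated from theirs.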

How the data were processed

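Poly(A) RNA of 15 samples was sequenced on a BGISEQ platform. The authors filtered reads with SOAPnuke, aligned them to GRCh38.p13 with HISAT and to gene sequences with Bowtie2 2.3.4.3, and RSEM 1.3.1 is named in the submitters' processing notes. The deposited expected counts are unnormalised estimates per gene, 92.1% (H196) and 93.7% (MRC5) of them whole, and the deposited FPKM values were scaled by the authors for gene length and library size. The authors' fold changes and p-values, 30 further per-library columns (12 for H196, 18 for MRC5) of TPM and normalised counts, and second copies of the tables with the same values were not used.

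Expected counts were rounded and fitted over all genes in edgeR 4.0.16 (R 4.3.3; filterByExpr, TMM, quasi-likelihood F test, two-sided, Benjamini-Hochberg), with the 9 MRC5 libraries in one model and the 6 H196 libraries in another. The SE is the log2 fold change over the square root of F. TMM factors were 0.916 to 0.941 for MRC5_coH196 and 1.03 to 1.05 for the other MRC5 libraries. The fit was tested on simulated data. Alternatives were DESeq2 1.42.0, limma 3.58.1 on log2 FPKM with pseudocounts of 1 and 0.1, other filters, fold limits, groups, a replicate block and each library left out. The members, lists and rules were chosen with earlier results of these data known. Named were all members, DEGs of the family and STAT3 lists, and the 5 largest rises and falls of the Hallmark set in MRC5_coH196 and H196_Co against mono-culture. Nearest genes had a mean of at least 10 CPM. Partner markers had at least 20 CPM in every mono-culture library of one line and under 0.5 CPM in the other. Nothing says that replicates came from separate cultures, so p-values measure the spread between libraries, which may be technical. Intervals for counts cover counting error only. Some genes of the lists are not reported here.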

Additional observations from a re-analysis of the deposited data

Results flagged for a closer look

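The effects of H196 and H69 cells on the fibroblasts differed for 9 of the 10 genes, by a direct test of MRC5_coH196 against MRC5_coH69 (edgeR, adjusted p under 0.05), beside 72.3% of all genes tested. The difference in log2 fold change was 1.05 for OSMR, 0.69 for SOCS3, 0.46 for IL6, 0.35 for IL11, 0.24 for IL6ST, 0.19 for STAT3, -0.56 for IL6R, -0.76 for LIF and -0.80 for CLCF1. For LIF the effects themselves had opposite signs and each passed the test, at -0.46 with H196 and 0.30 with H69 cells.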

How the results depend on the processing

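Of the log2 fold changes of the members under alternatives other than a left-out library, 264 kept direction and call, 23 lost the call, 4 gained it and 5 changed sign; with a library left out these were 207, 13, 3 and 5. The sign changes were all of LIFR, which passed no test there: -0.18 and -0.14 on log2(FPKM + 0.1) and log2(FPKM + 1) and -0.00039 with the 2 groups alone for MRC5_coH196 against MRC5_Mo, -0.053 to 0.084 with a library left out, -0.028 and -0.023 on the FPKM scales against MRC5_coH69, and -0.089 to 0.17 with a library left out in H196. With no limit on the fold change, 9, 3, 9 and 3 members and 47, 10, 43 and 11 Hallmark genes were called in MRC5_coH196 against MRC5_Mo, MRC5_coH69 against MRC5_Mo, MRC5_coH196 against MRC5_coH69 and H196_Co against H196_Mo. With a limit of 1, members numbered 1 in each comparison of MRC5_coH196 and 0 in H196, and Hallmark genes 10 in MRC5_coH196 against MRC5_Mo, 0 in MRC5_coH69 against MRC5_Mo and 8 in MRC5_coH196 against MRC5_coH69. In H196 the DESeq2 Wald test and limma on either FPKM scale called 0 members, and 0 to 1 with a library left out. For MRC5_coH69 against MRC5_Mo the Hallmark count of 1 became 0 on log2(FPKM + 1), 2 without a filter on low counts, and 0 to 1 with a library left out (0 without MRC5_coH69 replicate 1), and the DEGs over all genes were 71 by edgeR and 40 by DESeq2.

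Deviations of libraries with the same replicate number correlated at -0.12 to 0.081 in MRC5 and -0.15 to 0.033 in H196, so no shared deviation was seen. This cannot show whether libraries with the same number were cultured or prepared together. With the replicate number as a block, DEGs over all genes went from 4092, 71, 3618 and 494 to 4088, 70, 3612 and 471, and the call of OSMR in MRC5_coH69 against MRC5_Mo was lost (0.16, adjusted p = 0.062, edgeR), with no other member call changed. In each comparison the widest error among the members tested was that of IL6 or IL6R, which had few counts.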
